A study of Homo sapiens with 40 samples.

Results

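The 10 genes of receptor tyrosine kinase signalling examined here, INSR, IGF1R, ERBB2, ERBB3, MET, PDGFRA, IRS1, IRS2, GAB1 and GRB10, were followed in a melanoma cell line treated with inhibitors of phosphoinositide 3-kinase (PI3K). They were chosen by symbol: every probe set whose only gene symbol was one of the 10 was taken, which gave 42 of 54675 probe sets on the array. For each gene the brightest of its probe sets stood for the gene, and all 10 were among the 11865 genes tested, of 19775 with a symbol. A2058 is an established human melanoma line, grown in high-glucose medium with serum, and each culture received its agent once and was harvested after 24 h. BKM120 (buparlisib), an inhibitor of the class I PI3K isoforms, had 3 levels, called IC30, IC50 and IC90 (max) in the labels. BEZ235 (dactolisib), which inhibits PI3K and the kinase mTOR, had the levels IC50, IC90 and max. GDC0941 (pictilisib), an inhibitor of the class I PI3K isoforms whose name is also spelled GCD0941 in the labels, had the same 3. The solvent DMSO was the control, and each of these 10 groups held 4 biological replicates on 40 one-colour arrays. No molar dose is in the labels, nor what was measured to set an IC value, so compounds are matched by the name of the level only. The titles give the highest level of BKM120 as a maximum alone, so its pairs and steps at IC90 rest on taking IC90 (max) as IC90. All results come from 1 cell line.

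Receptor tyrosine kinases bind growth factors outside the cell and recruit PI3K inside it, directly or through docking proteins such as IRS1, IRS2 and GAB1. PI3K then activates AKT and mTOR, and AKT keeps FOXO transcription factors out of the nucleus. When PI3K or AKT is inhibited, FOXO factors are known to enter the nucleus and to raise transcription of several receptor genes, among them INSR and ERBB3, and of IRS2. The adaptor GRB10 acts in the other direction, as a substrate of mTOR that restrains signalling from the insulin and IGF1 receptors.

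Signals are given in the units of the deposited values, which are linear and scaled so that the trimmed mean of every array is 150. They are compared between groups for 1 gene, never between genes. Differences are log2 differences between group means of log2(signal + 16), tested with limma over all 40 arrays. A gene was called at a Benjamini-Hochberg adjusted p under 0.05 over the 11865 genes. One array, replicate 3 of BEZ235 at IC50, had a ratio of 3′ to 5′ control signal of 27.2 for ACTB, against 1.58 to 2.33 on the other 39 arrays, a sign of degraded RNA. For results that rest on its group, values without it are given beside them. All comparisons share 1 estimate of the spread over the 40 arrays, so that array also enters comparisons of other groups. Without it, 3480 genes were called at BKM120 IC30 (2519 with it), 7684 at BEZ235 max (6868) and 5270 at BEZ235 IC50 (5399), each against DMSO. Shares of all genes called are from all 40 arrays. Melanocyte genes were present on all arrays (MITF at 1592 to 2216, SOX10 at 1575 to 2649), and the summed signal of 9 melanocytic markers ranged from 9122 to 12743 in the treated groups, against 8075 to 8554 in DMSO. Of 17 markers of other cell types, 9 (EPCAM, CDH1, KRT5, VWF, CDH5, PTPRC, CD3D, CD14 and HBB) stayed under a signal of 16 on all 40 arrays, and the summed signal of the 17 ranged from 2159 to 2625 in the treated groups, against 2380 to 2515 in DMSO. KRT18 and LUM, on that list, were bright in this line (793.5 to 1479.2 and 752.5 to 1548.6). Of the 9 melanocytic markers 5, 6 and 7 rose and 0, 1 and 0 fell at the highest level of BKM120, BEZ235 and GDC0941 (55.6%, 77.8% and 77.8% called, beside 34.5%, 57.9% and 43.9% of all genes). Of 7 tested markers of other cell types 2 rose and 3 fell at BEZ235 max and 1 rose and 2 fell at GDC0941 max (71.4% and 42.9% called). The part of these markers in the results below was not tested.

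RefSeq promoter windows on GRCh38.p14 were matched by symbol for 8 of the 10 genes, all but ERBB3 and GAB1. The 250 bases upstream of the transcription start are shown for IRS2, INSR and PDGFRA, each of which rose at some level of all 3 compounds. IGF1R and ERBB2 did so too, and their windows are not shown. The forkhead element TGTTTAC, searched on both strands in 300 bases from 250 before to 50 after the start, was in 0 of the 13 windows of the 8 genes and in 3.42% of all 35116 windows. Its shorter core TGTTT was in 6 windows of 5 genes and in 44.4% of all windows. Capitals mark TGTTT on the strand shown. It begins 40 bases before the start in the IRS2 window. In the PDGFRA window, 1 of those RefSeq gives for this gene, 3 overlapping copies begin 125, 121 and 117 bases before the start. The INSR window holds none. The 250 bases of the other PDGFRA window and of the IGF1R and ERBB2 windows, not shown, hold none either. A match is a description of these letters, not a binding site.
IRS2 (chr13:109786584-109786833, minus strand): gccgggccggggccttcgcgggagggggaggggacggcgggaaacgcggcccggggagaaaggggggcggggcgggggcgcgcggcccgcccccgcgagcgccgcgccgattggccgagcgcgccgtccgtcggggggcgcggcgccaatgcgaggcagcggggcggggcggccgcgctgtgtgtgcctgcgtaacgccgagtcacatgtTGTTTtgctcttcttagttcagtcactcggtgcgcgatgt
INSR (chr19:7294415-7294664, minus strand): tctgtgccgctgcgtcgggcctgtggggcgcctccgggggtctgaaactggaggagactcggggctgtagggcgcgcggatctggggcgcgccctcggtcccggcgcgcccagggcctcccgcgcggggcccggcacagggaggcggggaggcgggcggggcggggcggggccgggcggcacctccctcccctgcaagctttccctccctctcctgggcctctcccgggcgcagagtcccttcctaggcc
PDGFRA (chr4:54233710-54233959, plus strand): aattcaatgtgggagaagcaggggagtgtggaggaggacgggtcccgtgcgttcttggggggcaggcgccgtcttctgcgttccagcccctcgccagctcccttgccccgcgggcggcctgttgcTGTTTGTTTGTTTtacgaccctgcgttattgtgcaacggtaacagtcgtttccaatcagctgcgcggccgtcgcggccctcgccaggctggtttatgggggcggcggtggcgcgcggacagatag

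Across the 9 treatments, the 10 genes fell into several patterns against DMSO. INSR, ERBB3, IRS2, IGF1R and ERBB2 rose in 7, 8, 5, 5 and 4 treatments and fell in none. MET fell in all 9 treatments and GRB10 in 5. PDGFRA and GAB1 rose in 6 and 5 treatments, with no call at the highest level of BKM120 or BEZ235. IRS1 changed in both directions, with 4 treatments higher and 4 lower. Because many genes responded, counts of members are read against the share of all genes called. For BKM120, 2 members rose and 2 fell at IC30, 3 rose and 3 fell at IC50, and 5 rose and 2 fell at IC90 (max). Of all genes tested, 21.2%, 19.9% and 34.5% were called at these levels, with 13.1%, 12.5% and 17.3% higher and 8.17%, 7.34% and 17.3% lower. For BEZ235, 8 members rose and 2 fell at IC50, 5 rose and 2 fell at IC90, and 6 rose and 1 fell at max. Without the array with degraded RNA 7 rose at IC50, all of these but ERBB2. Of all genes 45.5%, 55.0% and 57.9% were called, with 26.3%, 30.8% and 32.7% higher and 19.2%, 24.1% and 25.2% lower. For GDC0941, 4 members rose and 2 fell at IC50 and again at IC90, and 7 rose and 2 fell at max. Of all genes 16%, 25.2% and 43.9% were called, with 9.81%, 15.2% and 25.5% higher and 6.15%, 9.97% and 18.4% lower. The median log2 difference over the 10 genes was 0.20, 0.30 and 0.43 at the highest level of BKM120, BEZ235 and GDC0941, beside 0.00, 0.04 and 0.03 over all genes. All 9 comparisons use the same 4 DMSO arrays and are therefore not independent. Of the 62 calls against DMSO, 51 held when each array of the groups compared was left out in turn. The replicates are biological replicates of 1 line per the labels, so the p-values measure the spread between these samples, and in bulk RNA fewer cells of a kind cannot be told apart from less RNA per cell.

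**Figure D1:**
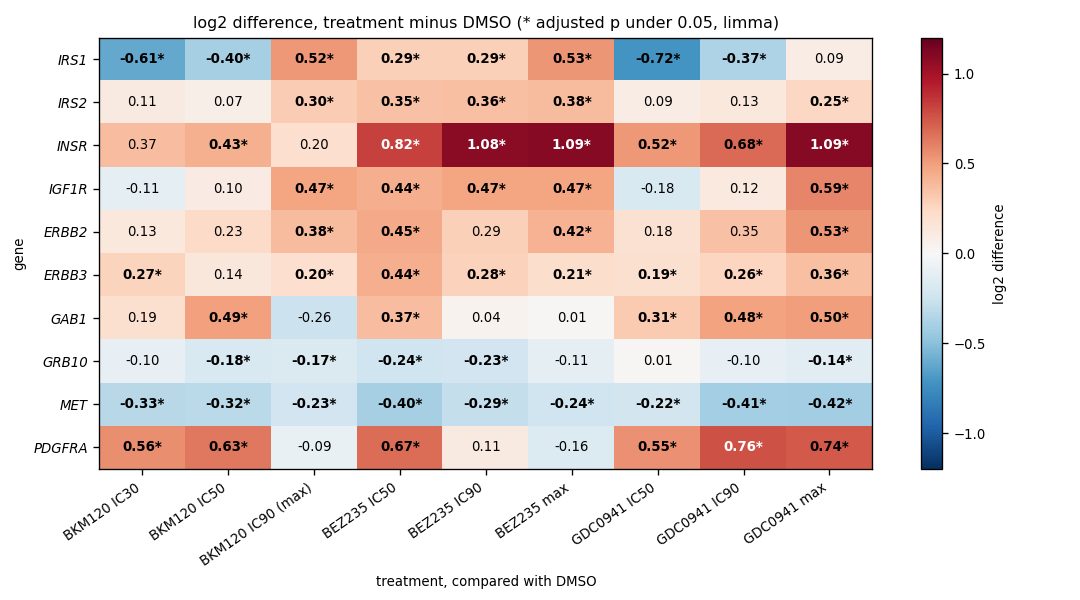
Log2 difference of each of the 10 genes (rows) between each treatment (columns, levels low to high within a compound) and DMSO, as means of 4 arrays per group; colour and number give the difference, and an asterisk marks an adjusted p under 0.05 (limma). MET is lower in all 9 columns (-0.42 to -0.22), INSR reaches 1.09 at BEZ235 max and at GDC0941 max, and IRS1 runs from -0.72 at GDC0941 IC50 to 0.53 at BEZ235 max.

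INSR encodes the insulin receptor. Its signal was 128.1, 132.2, 129.5 and 124.7 at BEZ235 IC90, against 60.6, 46.5, 55.9 and 47.7 in DMSO. The groups were far apart, and INSR rose by 1.08 ± 0.15 (log2, SE; n = 4 each; limma, adjusted p = 2.13e-07), the size of a 2.11-fold change. At BEZ235 max the rise was 1.09 ± 0.15 (limma, adjusted p = 1.60e-07) and at GDC0941 max also 1.09 ± 0.15 (limma, adjusted p = 3.18e-07). With GDC0941 the signal stood at 76.6 to 87.0 at IC50, 88.5 to 96.2 at IC90 and 119.3 to 146.9 at max, against 46.5 to 60.6 in DMSO, so that no 2 levels overlapped. The rises at IC50 and IC90 were 0.52 and 0.68 (limma, adjusted p = 0.0158 and 9.75e-04), and the highest level exceeded the lowest by 0.57 ± 0.15 (limma, adjusted p = 0.00433). The call at GDC0941 IC50 was lost without DMSO replicate 2 (log2 difference 0.475, limma, adjusted p = 0.0545).

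With BKM120 the INSR signal was lower than with the other compounds at their IC90: 63.5 ± 12.7 at BKM120 IC90 (max), against 128.6 ± 3.12 at BEZ235 IC90 and 93.3 ± 3.48 at GDC0941 IC90 (SD, n = 4 each). The differences were -0.88 ± 0.15 from BEZ235 and -0.47 ± 0.15 from GDC0941 (limma, adjusted p = 1.25e-05 and 0.0166), and the second was lost without BKM120 IC90 (max) replicate 1 (adjusted p = 0.0631) or 2 (0.0561). Against DMSO, INSR was called at BKM120 IC50 only, at 0.43 (limma, adjusted p = 0.0405), and 6 of the 8 fits that left out 1 array of these groups lost the call (replicates 2, 3 and 4 of DMSO and 1, 2 and 4 of BKM120 IC50, with adjusted p of 0.055 to 0.105). The call at BKM120 IC50 held with 39 arrays. It was lost with a pseudocount of 64, without a filter, with the mean over probe sets and with quantile normalization. INSR at BKM120 IC30, 0.37 with an adjusted p of 0.0841, was also called with 39 arrays (limma, adjusted p = 0.00918). At BEZ235 IC50 the array with degraded RNA read 54.0, within the DMSO range, while the other 3 read 107.0, 116.1 and 170.9. The rise there was 0.82 with that array and 1.08 ± 0.12 without it (limma, adjusted p = 1.55e-09).

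IGF1R encodes the receptor for insulin-like growth factors, which shares its substrates with INSR. It rose at the highest level of each compound and at all 3 levels of BEZ235. At GDC0941 max the 4 arrays read 700.1, 824.3, 586.5 and 738.6, against 520.3, 439.3, 437.9 and 461.5 in DMSO, with no overlap. The rise was 0.59 ± 0.12 (limma, adjusted p = 7.40e-05). It was 0.47 at BKM120 IC90 (max) and 0.44, 0.47 and 0.47 at BEZ235 IC50, IC90 and max (limma, adjusted p = 6.96e-04 to 0.00241), so the 3 BEZ235 levels gave similar sizes. By contrast IGF1R was at -0.11 and 0.10 at BKM120 IC30 and IC50 and at -0.18 and 0.12 at GDC0941 IC50 and IC90, with no call (limma, adjusted p of 0.334 to 0.615). The step from lowest to highest level was 0.58 ± 0.12 with BKM120 and 0.77 ± 0.12 with GDC0941 (limma, adjusted p = 1.47e-04 and 3.15e-06). With BEZ235 it was 0.04, with an interval of -0.20 to 0.27. Without the array with degraded RNA that step was -0.03 and the rise at BEZ235 IC50 was 0.50 (limma, adjusted p = 8.66e-04).

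ERBB3 and ERBB2 encode partners of 1 receptor pair: ERBB3 binds neuregulins and docks PI3K but has little kinase activity of its own, and ERBB2 supplies the kinase. On every treated array ERBB3 read above every DMSO array. Its 4 arrays at GDC0941 max read 2045.7, 1993.9, 2453.9 and 2112.1, against 1730.5, 1490.1, 1767.0 and 1715.3 in DMSO. The rises were small: 0.36 ± 0.06 at GDC0941 max (limma, adjusted p = 1.12e-05), 0.44 at BEZ235 IC50 (0.39 without the array with degraded RNA) and 0.19 to 0.28 in 6 further treatments, while 0.14 at BKM120 IC50 was not called (limma, adjusted p = 0.113). The calls at BKM120 IC90 (max) and GDC0941 IC50 were lost without DMSO replicate 2, the lowest DMSO array (0.147 and 0.132; limma, adjusted p = 0.0733 and 0.184). The second was also lost without replicate 1 or 4 of GDC0941 IC50 (adjusted p = 0.0838 and 0.129). With BEZ235 the ERBB3 signal was lower at max than at IC50, by -0.23 ± 0.06 (limma, adjusted p = 0.00288), and by -0.18 without the array with degraded RNA (adjusted p = 0.0184).

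ERBB2 rose by 0.53 ± 0.15 at GDC0941 max (limma, adjusted p = 0.00351), where its 4 arrays read 213.3, 204.8, 222.4 and 226.2, against 143.4, 143.5, 140.3 and 154.4 in DMSO. Each of the other 3 calls was lost in at least 1 fit with 1 array left out. At BEZ235 IC50 the array with degraded RNA read 369.0 beside 179.5, 181.0 and 143.9 on the others, and the difference of 0.45 became 0.18 without it (limma, adjusted p = 0.0119 and 0.156). At BEZ235 max, 0.42 became 0.343 without replicate 1 (limma, adjusted p = 0.0148 and 0.0645). At BKM120 IC90 (max), 0.38 (limma, adjusted p = 0.0421) missed the threshold in 7 of 8 fits with 1 array left out, all but that without BKM120 IC90 (max) replicate 1, at adjusted p of 0.052 to 0.11. In the 39-array fit the differences at BEZ235 IC90 (0.29) and GDC0941 IC90 (0.35), not called with all arrays, had adjusted p of 0.0104 and 0.00416 (limma). The calls at BKM120 IC90 (max) and BEZ235 max held in that fit. Only 1 of 3 ERBB2 probe sets was brighter than the dimmest gene tested. The others ranged from -0.12 to 0.07 and from -0.12 to 0.11, with no call. With the mean over probe sets, the calls at GDC0941 max, BEZ235 max and BKM120 IC90 (max) were lost.

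MET encodes the receptor for hepatocyte growth factor, and it was the receptor that fell in every treatment. It read 812.1, 948.2, 795.7 and 878.3 at GDC0941 max and 862.7, 844.4, 949.7 and 796.5 at GDC0941 IC90, against 1154.2, 1064.3, 1158.8 and 1220.8 in DMSO. In 8 of the 9 treatments all 4 arrays lay below all 4 DMSO arrays, and at GDC0941 IC50 the highest, 1067.9, just passed the lowest of DMSO. The falls were -0.41 and -0.42 ± 0.07 at GDC0941 IC90 and max (limma, adjusted p = 3.30e-05 and 9.09e-06), -0.33, -0.32 and -0.23 along the 3 levels of BKM120, and -0.40, -0.29 and -0.24 along those of BEZ235 (-0.31 at BEZ235 IC50 without the array with degraded RNA, which read 709.3). The smallest, -0.22 at GDC0941 IC50 (limma, adjusted p = 0.0304), missed the threshold when DMSO replicate 1, 3 or 4 or GDC0941 IC50 replicate 2 or 3 was left out, with adjusted p of 0.0614 to 0.141. All 4 MET probe sets had negative differences in all 9 treatments, from -0.50 to -0.16, and 8, 5, 1 and 2 of the 9 differences were called in the fit of all 41091 probe sets with 1 symbol.

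PDGFRA encodes a receptor for platelet-derived growth factors. Its signal was low, 27.1 to 39 in DMSO. It stood above every DMSO array in 6 treatments: with 47.7 to 61.3 and 51.0 to 69.5 at BKM120 IC30 and IC50, with 53.6 to 79.7 at BEZ235 IC50, and with 43.3 to 62.1, 65.8 to 66.3 and 50.1 to 72.6 at GDC0941 IC50, IC90 and max. These rises were 0.55 to 0.76 in size (limma, adjusted p of 1.16e-06 to 3.92e-04), and the one at BEZ235 IC50 was 0.67 with and 0.56 without the array with degraded RNA. In the 3 other treatments the groups overlapped with DMSO, with 23.8 to 36.7 at BKM120 IC90 (max), 34.4 to 39.2 at BEZ235 IC90 and 23.0 to 30.7 at BEZ235 max, and the differences of -0.09, 0.11 and -0.16 were not called (limma, adjusted p = 0.558, 0.401 and 0.223). Between the highest and lowest level PDGFRA dropped by 0.65 with BKM120 and by 0.82 with BEZ235 (SE 0.11 each; limma, adjusted p = 1.23e-05 and 2.29e-07), 0.72 without the array with degraded RNA. With GDC0941 the same difference was 0.18, with an interval of -0.04 to 0.41. The second PDGFRA probe set above the dimmest gene tested was at 0.41 at BEZ235 max, a call, where the brightest was at -0.16 with none, so the 2 disagree there. With the mean over probe sets, the drop between the lowest and highest level of BEZ235 was no longer called.

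**Figure D2:**
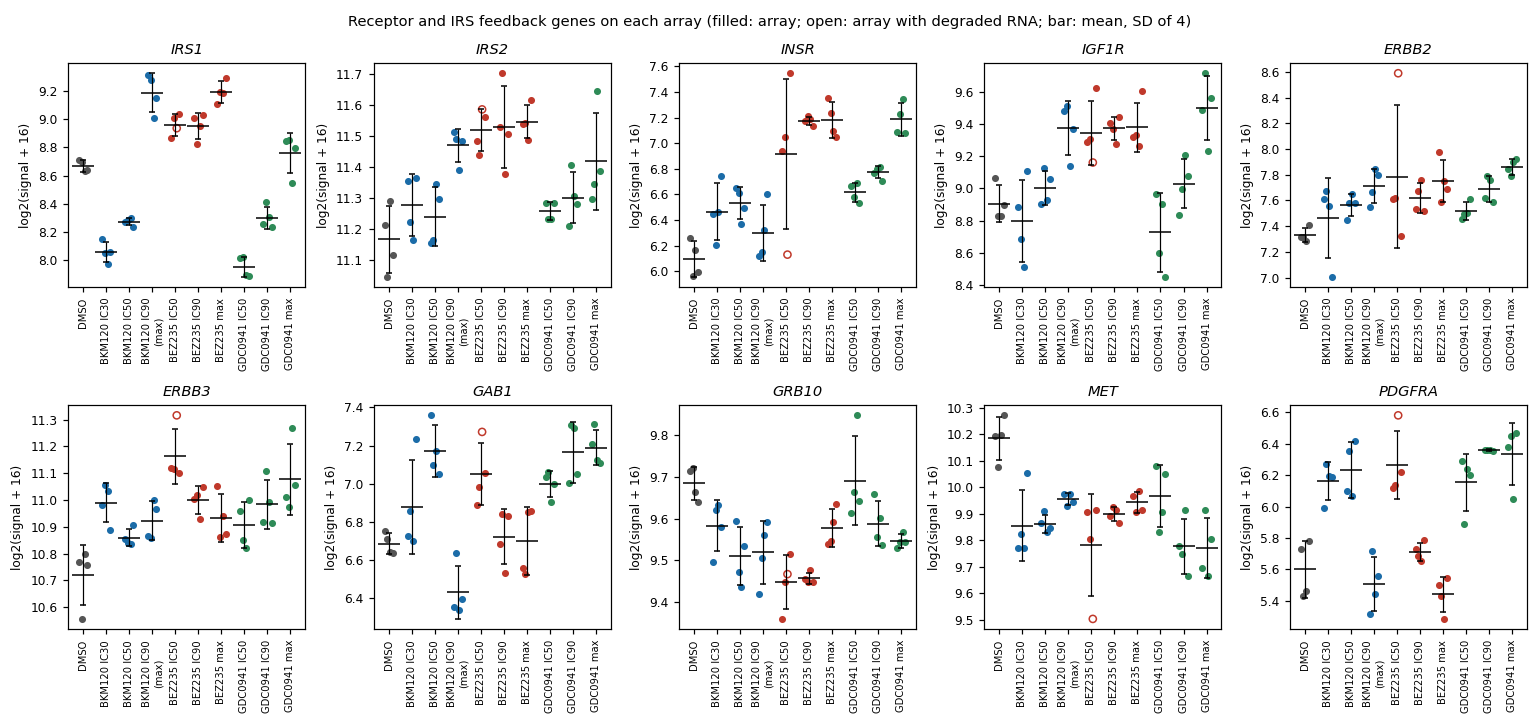
Log2(signal + 16) of each of the 10 genes on all 40 arrays, by group, with DMSO at the low end and each compound's levels low to high; points are arrays, the open point is the array with degraded RNA, and bars are the mean and SD of 4 arrays. IRS1 passes from below to above DMSO within BKM120, and from below DMSO to overlap with it within GDC0941. PDGFRA overlaps with DMSO at the highest levels of BKM120 and BEZ235 but not of GDC0941.

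Among the docking proteins, IRS1, the insulin receptor substrate that carries the signal of INSR and IGF1R to PI3K, was the member with changes in both directions. At BKM120 IC90 (max) it read 620.2, 606.7, 500.2 and 551.5. At GDC0941 IC50 it read 241.9, 243.1, 222.0 and 220.3, and at BKM120 IC30 267.3, 248.6, 235.5 and 250.6, against 402.2, 398.4, 379.8 and 382.5 in DMSO. None of these groups overlapped with DMSO. IRS1 fell by 0.72 ± 0.07 at GDC0941 IC50 and by 0.61 ± 0.07 at BKM120 IC30 (limma, adjusted p = 4.28e-10 and 8.80e-09), and rose by 0.52 ± 0.07 at BKM120 IC90 (max) (limma, adjusted p = 1.05e-07).

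Within BKM120 and within GDC0941 IRS1 stood higher at each higher level. With BKM120 the difference from DMSO was -0.61, -0.40 and 0.52 at IC30, IC50 and IC90 (max), and the highest level exceeded the lowest by 1.13 ± 0.07 (limma, adjusted p = 6.41e-16). With GDC0941 it was -0.72, -0.37 and 0.09 at IC50, IC90 and max, a step of 0.81 ± 0.07 (limma, adjusted p = 9.90e-12), and at max the arrays overlapped with DMSO, with no call (adjusted p = 0.274), though 0.164 was called without GDC0941 max replicate 3 (adjusted p = 0.0471). With BEZ235 it was above DMSO at each level, by 0.29, 0.29 and 0.53 (limma, adjusted p = 5.40e-04, 4.68e-04 and 2.06e-08), and the step was 0.23 (adjusted p = 0.00585). Without the array with degraded RNA the rise at BEZ235 IC50 was 0.30 and the step 0.22. With the mean over probe sets, the falls of IRS1 at BKM120 IC50 and GDC0941 IC90 were no longer called. Those at BKM120 IC30 and GDC0941 IC50 held. The highest means, 570.7 ± 31.3 at BEZ235 max and 569.7 ± 55.0 at BKM120 IC90 (max), overlapped in range, as did 299.7 ± 17.4 at GDC0941 IC90 and 293.2 ± 5.82 at BKM120 IC50 (SD, n = 4 each).

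IRS2, the other insulin receptor substrate among the 10, rose in 5 treatments and fell in none. The largest rise was at BEZ235 max, where it read 2961.9, 2967.2, 2854.4 and 3123.3, against 2353.6, 2095.8, 2489.7 and 2203.2 in DMSO. That rise was 0.38 ± 0.07 (limma, adjusted p = 4.88e-06), and the other 2 levels of BEZ235 gave 0.35 (0.33 without the array with degraded RNA) and 0.36. Highest-level BKM120 gave 0.30 and GDC0941 max 0.25 (limma, adjusted p = 3.23e-04 and 0.00169). At the lower levels of these compounds IRS2 differed from DMSO by 0.07 to 0.13, with no call. In the 4 treatments where IRS1 fell, BKM120 IC30 and IC50 and GDC0941 IC50 and IC90, IRS2 was within 0.13 of DMSO.

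GAB1 encodes a docking protein used by MET and the ERBB receptors. It read 148.1, 121.2, 128.2 and 116.7 at BKM120 IC50 but 65.6, 83.4, 64.9 and 68.1 at BKM120 IC90 (max), against 91.8, 88.6, 83.8 and 83.5 in DMSO. It was thus above all DMSO arrays at the middle level and below all of them at the highest. The rise of 0.49 ± 0.11 was called (limma, adjusted p = 8.70e-04), and the difference of -0.26 was not (limma, adjusted p = 0.0578), though it was called with 39 arrays (adjusted p = 0.0354) or without BKM120 IC90 (max) replicate 2 (adjusted p = 0.0247). With GDC0941 GAB1 rose at IC50, IC90 and max, by 0.31, 0.48 and 0.50 (limma, adjusted p = 0.0366, 6.79e-04 and 1.66e-04). The first of these missed the threshold in 6 of the 8 fits with 1 array left out, those without replicates 2, 3 or 4 of DMSO or 1, 2 or 4 of GDC0941 IC50 (adjusted p of 0.0609 to 0.0949). With BEZ235 it rose at IC50 by 0.37 (0.29 without the array with degraded RNA) and differed by 0.04 and 0.01 at IC90 and max. These values come from the brightest of 7 GAB1 probe sets. The next brightest, with mean signals of 63.0 and 26.2, differed from DMSO by 0.01 to 0.36 and -0.01 to 0.4, with 1 call each. Neither thus showed the drop of the brightest at BKM120 IC90 (max). A dimmer one (20.0) ranged from -0.24 to 0.24 with no call. With the mean over probe sets, the calls at BKM120 IC50, BEZ235 IC50, GDC0941 IC50 and GDC0941 IC90 were lost. That at GDC0941 max held.

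GRB10 restrains the insulin and IGF1 receptors. It fell at BEZ235 IC50 and IC90, where it read 640.6, 682.1, 691.5 and 715.4 and then 685.5, 681.7, 696.3 and 682.3, against 824.3, 828.0, 795.2 and 781.4 in DMSO. The falls were -0.24 and -0.23 ± 0.05 (limma, adjusted p = 1.81e-04 and 1.72e-04), the first also -0.24 without the array with degraded RNA, and those at BKM120 IC50 and IC90 (max) and at GDC0941 max were -0.18, -0.17 and -0.14. At BEZ235 max the difference of -0.11 was not called (limma, adjusted p = 0.063), though it was with 39 arrays (adjusted p = 0.0469) or without BEZ235 max replicate 4 (-0.126, adjusted p = 0.0454). The call at BKM120 IC90 (max) was lost without its replicate 1 (-0.132; limma, adjusted p = 0.0523), and that at GDC0941 max without DMSO replicate 1 or 2 (adjusted p = 0.0559 and 0.0582). A second probe set of GRB10 fell further, by 0.55 at BEZ235 IC90 and 0.57 at GDC0941 max, and was called in 7 treatments. A dim one, with a mean signal of 4.98, was called higher at BKM120 IC90 (max), by 0.50, the 1 gene and treatment in which probe sets of a member were called in opposite directions.

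**Figure D3:**
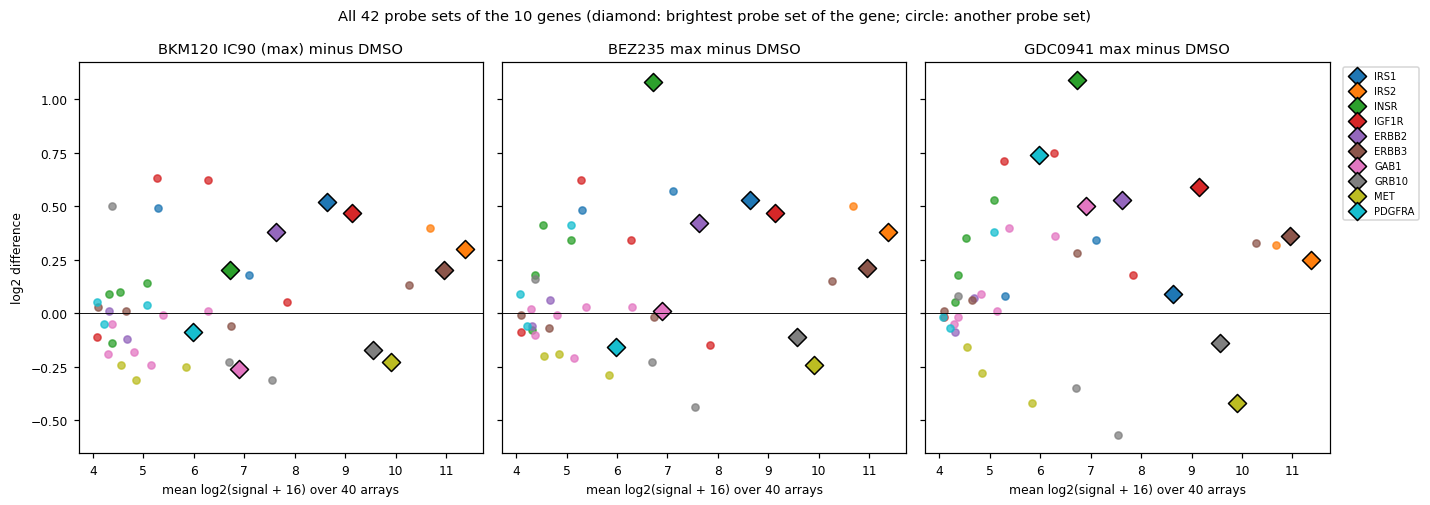
Log2 difference from DMSO of all 42 probe sets of the 10 genes against their mean log2(signal + 16) over 40 arrays, at the highest level of each compound; diamonds are the brightest probe set of a gene and circles the others. The 4 probe sets of MET lie below 0 in all 3 panels, and the brightest of INSR stands at 1.09 with BEZ235 and with GDC0941.

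Over all 42 probe sets, 26 were brighter than the dimmest gene tested, and 27 were called in at least 1 treatment. The probe sets of IRS2 moved together, with differences of 0.38 and 0.50 at BEZ235 max and both called. So did the 2 brightest probe sets of ERBB3, with 0.36 and 0.33 at GDC0941 max. The next, with a mean signal of 93.0, ranged from -0.18 to 0.28 with no call. With the mean over probe sets, the ERBB3 calls at BKM120 IC30 and IC90 (max) and at BEZ235 IC50, IC90 and max were lost. Those at GDC0941 IC50 and IC90 were lost too, and only that at GDC0941 max held. The second probe set of IRS1 had differences of -0.53, 0.10 and 0.18 along BKM120, 0.42, 0.35 and 0.57 along BEZ235 and -0.41, 0.12 and 0.34 along GDC0941, with an SE of 0.23 and no call, and the third, with a mean signal of 24.5, fell at GDC0941 IC50 (-0.36) and rose at BKM120 IC90 (max), BEZ235 IC90 and BEZ235 max. For IGF1R, the second probe set was called in 1 treatment and stood at -0.11 and -0.15 at BEZ235 IC90 and max, where the brightest was at 0.47. Of the 5 INSR probe sets, the only other above the dimmest gene tested had a mean signal of 18.2. It was called higher in 1 treatment and reached 0.53. A dimmer one, with a mean signal of 7.38, was called higher in 3 treatments, and the rest in none. In the fit of single probe sets 18.5%, 31.2% and 22.1% of all probe sets were called at the highest level of BKM120, BEZ235 and GDC0941.

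The compounds were compared at the same named level in 6 pairs. BKM120 and GDC0941 differed least at IC50, where 1 of 10 members was called beside 0.598% of all genes (0.455% higher and 0.143% lower with BKM120). These were 71 genes, against 490 with 39 arrays, where 2 members were called, and 18 to 118 with 1 array of the pair left out. The member called with all arrays was IRS1, at 0.32 ± 0.07 (limma, adjusted p = 0.0152), lost without BKM120 IC50 replicate 2 (adjusted p = 0.0516) or GDC0941 IC50 replicate 4 (0.0824). For the other 9 members the difference lay within intervals that reached from -0.40 (INSR) to 0.51 (IGF1R). At IC90 the same 2 compounds differed in 6 members, 3 higher and 3 lower with BKM120, beside 30% of all genes (11.7% higher and 18.3% lower). IRS1 was higher with BKM120 by 0.89 ± 0.07 (limma, adjusted p = 4.08e-13), IGF1R by 0.35 and IRS2 by 0.17, while PDGFRA was lower by 0.85 ± 0.11, GAB1 by 0.74 ± 0.11 and INSR by 0.47. The IRS2 call missed the threshold in 6 of 8 fits with 1 array left out (all but those without BKM120 IC90 (max) replicate 3 or GDC0941 IC90 replicate 2), and that of IGF1R without BKM120 IC90 (max) replicate 1 or 2 or GDC0941 IC90 replicate 1 (adjusted p of 0.0668 to 0.0925).

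BEZ235, the compound that also inhibits mTOR, differed from GDC0941 in 6 members at IC50, 4 higher and 2 lower, beside 33.9% of all genes (18.2% higher and 15.7% lower). At IC90 it differed in 7, 4 higher and 3 lower, beside 43.0% (23.0% and 20.0%). IRS1 was higher with BEZ235 by 1.01 ± 0.07 at IC50 and by 0.65 ± 0.07 at IC90 (limma, adjusted p = 3.78e-14 and 5.77e-10), with 450.0 to 509.3 at BEZ235 IC50, against 220.3 to 243.1 at GDC0941 IC50. IGF1R (0.62 and 0.34) and IRS2 (0.26 and 0.23) were also higher at both levels. ERBB3 was higher at IC50 (0.25) and INSR at IC90 (0.40). GRB10 was lower at both levels (-0.24 and -0.13), MET at IC50 (-0.19), and GAB1 (-0.44) and PDGFRA (-0.65) at IC90. Without the array with degraded RNA the difference in MET at IC50 was -0.09 (limma, adjusted p = 0.272), and its call was also lost without BEZ235 IC50 replicate 2 or GDC0941 IC50 replicate 1 or 4 (adjusted p of 0.0504 to 0.139). Without that array the difference in INSR at IC50 was called, at 0.56 (limma, adjusted p = 2.84e-04), and those in IGF1R, IRS2, ERBB3 and GRB10 there were 0.68, 0.24, 0.20 and -0.25, still called, as was that in IRS1. At IC90 the calls of INSR and GRB10 each missed the threshold in 5 of 8 fits with 1 array left out. For INSR these were the fits without BEZ235 replicate 1, 2 or 3 or GDC0941 replicate 1 or 4 (adjusted p of 0.0533 to 0.0688), and for GRB10 those without BEZ235 replicate 1, 2 or 4 or GDC0941 replicate 1 or 3 (adjusted p of 0.0538 to 0.108). The call of IGF1R at IC90 was lost without GDC0941 IC90 replicate 1 (0.279, adjusted p = 0.074).

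BKM120 and BEZ235 differed in 4 members at IC50, all lower with BKM120, beside 32.2% of all genes (15.5% higher and 16.8% lower): IRS1 by 0.69 ± 0.07, IGF1R by 0.34, ERBB3 by 0.30 and IRS2 by 0.28 (limma, adjusted p = 7.69e-10 to 0.0234). Without the array with degraded RNA INSR joined them (-0.65; limma, adjusted p = 6.01e-05), and IRS1, IGF1R, ERBB3 and IRS2 stood at -0.70, -0.40, -0.25 and -0.26, all still called. The IGF1R call was lost without BKM120 IC50 replicate 1 or 3 or BEZ235 IC50 replicate 4 (adjusted p of 0.0595 to 0.101). At IC90 they differed in 3 members beside 45.2% of all genes (18.5% higher and 26.7% lower with BKM120): IRS1 was 0.24 higher with BKM120, INSR 0.88 lower and GAB1 0.29 lower. The GAB1 call was lost without BKM120 IC90 (max) replicate 1 or 3 or BEZ235 IC90 replicate 2 or 4 (adjusted p of 0.062 to 0.0751). ERBB2 was called in no pair, with intervals that reached from -0.52 to 0.57 over the 6. Both of its pairs with BEZ235 at IC50 rested on single arrays. BKM120 against BEZ235 was at -0.22, -0.375 without BEZ235 IC50 replicate 4 and 0.05 without the array with degraded RNA (limma, adjusted p = 0.256, 0.0399 and 0.767). BEZ235 against GDC0941 was at 0.27, 0.423 and 0.00 in the same fits (limma, adjusted p = 0.157, 0.0212 and 0.997).

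**Figure D4:**
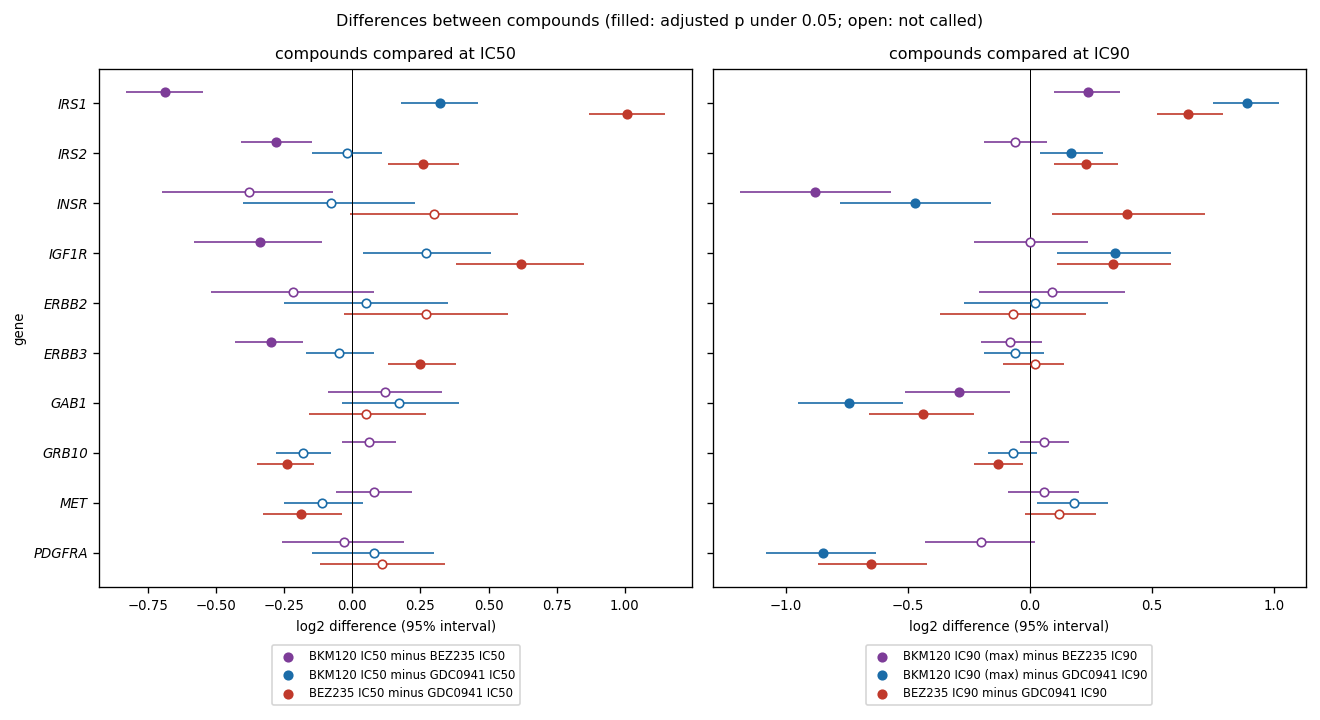
Log2 differences between compounds at the same named level (left IC50, right IC90) for the 10 genes, as first compound minus second with 95% intervals of the moderated test; filled points have an adjusted p under 0.05 (limma). IRS1 reaches 1.01 (BEZ235 minus GDC0941 at IC50) and 0.89 (BKM120 minus GDC0941 at IC90), and the BKM120 minus GDC0941 differences in PDGFRA and GAB1 are 0.08 and 0.17 at IC50 and -0.85 and -0.74 at IC90.

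Between the highest and the lowest level of a compound, 5 members changed with BKM120, 5 with BEZ235 and 6 with GDC0941. Of all genes 34.0%, 39.1% and 29.6% changed, with 14.3%, 20.4% and 16.2% higher and 19.7%, 18.7% and 13.4% lower at the highest level. Those that rose with BKM120 were IRS1, IGF1R and IRS2, and those that fell were PDGFRA and GAB1 (-0.45). With BEZ235, GRB10 (0.13) and IRS1 rose, and PDGFRA, GAB1 (-0.35) and ERBB3 fell. In the 39-array fit GRB10 stood at 0.14 and GAB1 at -0.28, both still called. With GDC0941, IRS1, IGF1R, INSR and ERBB3 (0.17) rose, and MET (-0.20) and GRB10 (-0.15) fell. Of these 16 calls 5 missed the threshold when 1 array was left out: IRS2 with BKM120 (without BKM120 IC30 replicate 2 or 3 or BKM120 IC90 (max) replicate 1), GRB10 with BEZ235 (without BEZ235 IC50 replicate 1 or 2 or BEZ235 max replicate 3 or 4), and ERBB3, GRB10 and MET with GDC0941 (ERBB3 without IC50 replicate 2 or 3 or max replicate 3, GRB10 without IC50 replicate 3 or max replicate 1, MET without IC50 replicate 1 or 4 or max replicate 1 or 3), with adjusted p of up to 0.0902, 0.121, 0.2, 0.165 and 0.115 in that order. Only 7 of the 16 held in all of these fits and under every other setting in which the gene was tested. The mean over probe sets lost the calls of PDGFRA, ERBB3, GAB1 and GRB10 with BEZ235 and of ERBB3 and MET with GDC0941. A fit of only the arrays compared lost those of IRS1, GAB1 and GRB10 with BEZ235 and of ERBB3 and GRB10 with GDC0941.

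Whether the step from IC50 to IC90 differed between compounds was tested directly, and 4 members had such calls. Against BEZ235, the step of BKM120 differed in 2 members beside 24.6% of all genes (9.84% higher and 14.8% lower), IRS1 by 0.93 ± 0.10 and GAB1 by -0.41. Against GDC0941 it differed in 4 beside 19.4% (7.43% and 11.9%): IRS1 by 0.57 and MET by 0.28, and PDGFRA by -0.93 and GAB1 by -0.91. Set against GDC0941, the step of BEZ235 also differed in 4 beside 9.81% (5.04% and 4.77%): MET by 0.31, and PDGFRA by -0.76, GAB1 by -0.49 and IRS1 by -0.36. In the 39-array fit the last 3 were -0.65, -0.42 and -0.37, and against BEZ235 the step of BKM120 differed by 0.93 in IRS1 and by -0.49 in GAB1, all still called. PDGFRA averaged 29.8 ± 5.48 at BKM120 IC90 (max), against 59.7 ± 9.25 at BKM120 IC50, and 36.5 ± 2.09 at BEZ235 IC90, against 61.6 ± 12.3 at BEZ235 IC50, but 66.2 ± 0.25 at GDC0941 IC90, against 55.7 ± 8.45 at GDC0941 IC50 (SD, n = 4 each). The adjusted p-values were 3.19e-09 to 0.0392, 2.84e-05 to 0.0416 and 0.00145 to 0.044 in these 3 comparisons (limma, n = 4 per group). The calls of IRS1 and PDGFRA held in all 16 fits with 1 array left out, as did that of GAB1 between BKM120 and GDC0941. With the mean over probe sets, the IRS1 calls against GDC0941 were lost for BKM120 and for BEZ235. The PDGFRA call between BEZ235 and GDC0941 was lost there too. A fit of only the arrays compared also lost the IRS1 call between BEZ235 and GDC0941. Both MET calls were lost in most fits with 1 array left out (12 and 10 of 16). Without the array with degraded RNA the second was lost (0.215, limma, adjusted p = 0.0912) and the first held (0.28, limma, adjusted p = 0.00866). Both were also lost without a filter, with the mean over probe sets and without a variance trend.

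The other genes of these pathways were counted from fixed lists at the highest level of each compound. Of 49 other receptor tyrosine kinases 21 were tested, and 3 rose and 2 fell at BKM120 IC90 (max), 6 rose and 7 fell at BEZ235 max, and 5 rose and 4 fell at GDC0941 max (23.8%, 61.9% and 42.9% called, beside 34.5%, 57.9% and 43.9% of all genes). ROR1, a WNT5A receptor, averaged 73.7 ± 11.5 at BEZ235 max, against 180.2 ± 29.0 in DMSO (SD, n = 4 each), a fall of 1.13 ± 0.13 (limma, adjusted p = 1.02e-09). FGFR1 fell by 0.91 there, and the ephrin receptor EPHA2 rose at BKM120 IC90 (max) and BEZ235 max (0.57 and 0.36) and fell at GDC0941 max (-0.52). At BKM120 IC30 and IC50 it fell (-0.88 and -0.78; limma, adjusted p = 4.64e-08 and 5.67e-07), so with BKM120 its direction differed between levels. AXL rose at BKM120 IC90 (max) and BEZ235 max (0.23 and 0.38) but fell at BKM120 IC30 and IC50 (-0.25 and -0.16; limma, adjusted p = 9.43e-04 and 0.0319) and at GDC0941 IC50 (-0.20). KIT, the receptor for stem cell factor, and FGFR3 rose at GDC0941 max (0.62 and 0.50). KIT, dim at 17.1 in DMSO, also rose in other treatments, among them BKM120 IC30 (0.67), BEZ235 IC90 (0.50) and GDC0941 IC90 (0.79). It was not called at BKM120 IC90 (max) or BEZ235 max (0.04 and 0.25). FGFR3 also rose at BEZ235 max (0.22) and GDC0941 IC90 (0.31).

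Of 26 ligands of these receptors and IGF-binding proteins 15 were tested, and 3 rose and 5 fell at BKM120 IC90 (max), 2 rose and 8 fell at BEZ235 max, and 2 rose and 8 fell at GDC0941 max. These are 53.3%, 66.7% and 66.7% called, beside 34.5%, 57.9% and 43.9% of all genes (17.3%, 32.7% and 25.5% higher and 17.3%, 25.2% and 18.4% lower). Their median differences were 0.00, -0.36 and -0.30, beside 0.00, 0.04 and 0.03 over all genes. IGFBP3, which binds IGF1 and IGF2 outside the cell, averaged 309.5 ± 29.3 at GDC0941 max, against 663.8 ± 42.8 in DMSO (SD, n = 4 each), and fell by 0.42, 0.82 and 1.06 at the highest level of BKM120, BEZ235 and GDC0941 (limma, adjusted p = 3.63e-05, 1.40e-11 and 3.27e-14). HBEGF, a ligand of the EGF receptor, fell in all 3 (-0.32, -0.56 and -0.79), and TGFA, another, fell at GDC0941 max (-0.73). IGFBP2, another IGF-binding protein, rose at BKM120 IC90 (max) and GDC0941 max (0.47 and 0.58) and fell at BEZ235 max (-0.28).

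Of 30 other adaptors 19 were tested, with 3, 7 and 7 higher and 3, 2 and 1 lower at the highest level of BKM120, BEZ235 and GDC0941 (31.6%, 47.4% and 42.1% called, beside 34.5%, 57.9% and 43.9% of all genes). GAB2, a relative of GAB1, rose in all 3, by 0.37, 0.45 and 0.46 (limma, adjusted p = 0.00431, 2.44e-04 and 2.71e-04). Of 30 proteins that limit receptor or IRS signalling 27 were tested, with 1, 9 and 6 higher and 5, 8 and 7 lower (22.2%, 63.0% and 48.1% called, beside the same shares of all genes). TRIB3, a pseudokinase that binds AKT, fell in all 3 (-0.90, -0.38 and -0.41). SOCS2 and PTPN2, a SOCS protein and a tyrosine phosphatase, rose by 0.78 and 0.77 at BEZ235 max. LRIG1, a transmembrane protein that limits ERBB receptors, fell by 0.58 and 0.52 at the highest levels of BKM120 and BEZ235. These lists, too, were chosen with earlier results of these data known.

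For 4 of the members the tested genes with the most similar profile over the 10 group means were listed by Pearson's r, as a description over 10 points that share their libraries. The nearest to IRS1 were GLI2 (r = 0.985), DEPDC7 (0.972) and HDAC7 (0.97), and those to IRS2 were TNIP2 (0.987), PGGHG (0.978) and DDX59 (0.978). INSR was nearest to ICA1 (0.991), RAVER2 (0.99) and SMARCD3 (0.976), and ERBB3 to TMED4 (0.969), CD99 (0.968) and FKBP8 (0.962).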

How the data were processed

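RNA from A2058 cultures was amplified with a NuGEN kit and hybridised to 1-colour oligonucleotide arrays, per the labels' protocols. The deposited values are linear signal intensity per probe set, made with MAS5 per the submitters' processing notes, each array scaled by the authors to a trimmed mean of 150. The MAS5 version is not given in the sources used here. Scaling removes any change in total RNA. The deposited intensity values were turned to log2(value + 16) here.

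Of 54675 probe sets, 41097 had 1 symbol, 1801 several and 11777 none. The probe set with the highest mean stood for a gene (a cross-hybridising one only where there was no other), and genes with a mean under the 40th percentile were left out, which kept 11865. limma 3.58.1 (R 4.3.3) fitted the 10 groups over 40 arrays with a variance trend, 30 residual degrees of freedom and Benjamini-Hochberg adjustment in each of 21 comparisons. A second fit took 41091 probe sets without a filter. The number of arrays, 4 per group, limits the precision. The procedure was tested on simulated data. Named genes are the 10 members and, of each other list, up to 4 per direction with the largest called difference and no overlap with DMSO at the highest level of a compound. Members and lists were chosen with earlier results of these data known. Protein sequences were not analysed here. Alternatives were pseudocount, filter, probe set summary, normalization, fewer arrays, variance trend and replicate block.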

Additional observations from a re-analysis of the deposited data

Results flagged for a closer look

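In 100 groups of 4 arrays (10 genes in 10 groups), the gap of the highest or lowest array from the nearest other on the log2(signal + 16) scale was set against the range of the group and compared with Dixon's 95% critical value. Of the 100 groups 2 passed it, where chance passes about 1 in 20. ERBB3 on BEZ235 IC50 replicate 3, the array with degraded RNA, was the highest of its group with a gap of 0.917 of the range (2532.8, beside 2180.7 to 2207.9). PDGFRA on GDC0941 IC90 replicate 4 was the lowest with a gap of 1.0 of the range, but the range was only 65.8 to 66.3. On the linear signals 3 groups passed, these 2 (0.923 and 1.0) and ERBB2 at BEZ235 IC50 (0.835), where the array with degraded RNA was the highest.

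The step from IC50 to IC90 differed between compounds for 4 genes by a test of the difference itself (limma interaction terms, first compound minus second). For IRS1 the difference was 0.93 between BKM120 and BEZ235, 0.57 between BKM120 and GDC0941 and -0.36 between BEZ235 and GDC0941. For GAB1 it was -0.41, -0.91 and -0.49 in the same pairs. Of these, the first was lost in 9 of 16 fits with 1 array left out and the last in 5. For PDGFRA it was -0.93 between BKM120 and GDC0941 and -0.76 between BEZ235 and GDC0941. For MET it was 0.28 and 0.31 in those pairs, lost in 12 and 10 of 16 such fits.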

How the results depend on the processing

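The 10 groups have 1 cell line, 4 arrays each and no molar doses, and dim probe sets limit INSR, GAB1 and PDGFRA most. Of the calls of members against DMSO, 40 of 62 held under every alternative in which the gene was tested (the 60th-percentile filter left out INSR, GAB1 and PDGFRA). The number of members called moved by over 1.5 times as follows (number with the settings of the report in brackets). Without a filter, the step of BKM120 against BEZ235 gave 1 (2) and of BEZ235 against GDC0941 2 (4). With a 60th-percentile filter, which tests fewer genes, there were 3 (6) for BKM120 IC50, GDC0941 IC50 and GDC0941 IC90 against DMSO, 2 (1) for BKM120 against GDC0941 at IC50, 1 (3) for BKM120 against BEZ235 at IC90, 3 (6) for BKM120 and 4 (7) for BEZ235 against GDC0941 at IC90, 3 (5) for the highest against the lowest level of BKM120 and of BEZ235, and 1 (2), 2 (4) and 2 (4) for the steps of BKM120 against BEZ235, BKM120 against GDC0941 and BEZ235 against GDC0941. With the mean over probe sets there were 3 (6) for BKM120 IC50 and GDC0941 IC50 against DMSO, 0 (1) for BKM120 against GDC0941 at IC50 (limma, with 2 at an unadjusted p under 0.05), 3 (7) for BEZ235 against GDC0941 at IC90, 1 (5) for BEZ235 max against IC50, 4 (2) for the step of BKM120 against BEZ235 and 0 (4) for that of BEZ235 against GDC0941 (limma, with 0 at an unadjusted p under 0.05). Quantile normalization, and 39 arrays, each gave 2 (1) for BKM120 against GDC0941 at IC50. A fit of only the arrays compared gave 2 (5) for BEZ235 max against IC50 and 1 (4) for the step of BEZ235 against GDC0941. For these the cause was not tested beyond what each setting changes.

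Leaving out 1 array at a time gave 3 to 5 members (6) for GDC0941 IC50 against DMSO, 0 to 1 (1) for BKM120 against GDC0941 at IC50 (limma, with 2 at an unadjusted p under 0.05 in both fits that gave 0), 3 to 6 (6) for the same pair at IC90, 4 to 7 (7) for BEZ235 against GDC0941 at IC90, and 1 to 4 (2), 3 to 4 (4) and 2 to 4 (4) for the steps. With the mean over probe sets, 2 differences turned: IRS1 between BKM120 IC90 (max) and BEZ235 IC90, called at 0.24 in the report, was -0.005 (limma, adjusted p = 0.976), and GRB10 between BKM120 IC90 (max) and GDC0941 IC90, -0.07 with no call there (adjusted p = 0.322), was 0.149 (adjusted p = 0.0294). Over all genes, counts moved most between BKM120 and GDC0941 at IC50, with 71 in the report, 37 with the mean over probe sets, 135 with quantile normalization, 350 with only the arrays compared, 490 with 39 arrays and 18 to 118 with 1 array left out. With only the arrays compared, 2223 (5399) were called for BEZ235 IC50 against DMSO, 817 (3825) and 1020 (4021) for BKM120 against BEZ235 and BEZ235 against GDC0941 at IC50, 1792 (4636) for BEZ235 max against IC50, and 1868 (2923) and 315 (1164) for the steps of BKM120 against BEZ235 and of BEZ235 against GDC0941. The 60th-percentile filter gave 2343 (3564) for BKM120 against GDC0941 at IC90 and 2684 (4036) for BKM120 IC90 (max) against IC30, and 39 arrays gave 2863 (1894) for GDC0941 IC50 against DMSO.

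Replicate numbers did not pair the samples: deviations of same-numbered samples had a mean correlation of -0.012 (-0.315 to 0.305) over 180 pairs, and 8 of 40 samples correlated best with their own number. With the replicate number as a block, 1 call was lost, that of IRS2 between BKM120 IC90 (max) and GDC0941 IC90 (0.169, limma, adjusted p = 0.0553 against 0.0458), and no number of members called moved by over 1.5 times.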
